A study of Anolis sagrei with 10 samples.

Results

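The HOXD genes, a run of neighbouring homeobox genes that code for transcription factors of body and limb patterning, were followed in forelimb and hindlimb buds of the brown anole, the lizard Anolis sagrei. Members were all genes whose symbol consists of HOXD and a number, and 6 of the 9 listed members were found this way among 25920 gene identifiers: HOXD3, HOXD4, HOXD9, HOXD10, HOXD11 and HOXD12. HOXD1, HOXD8 and HOXD13 matched no symbol used here and were not analysed. All embryos were wild type and at stage 7, the labels of both groups differ in the limb alone, and no treatment is named. Each limb was sequenced in 5 libraries of polyadenylated RNA made from collected pairs of buds, and the replicate numbers 1 to 5 recur in both limbs. The labels do not say how many embryos went into a library, nor whether equal numbers mark the same embryos, so p-values measure the spread between these libraries.

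HOXD genes stand in order of their paralogue number along the chromosome, and in mouse and chick limb buds they are switched on in that order and in nested domains. In the mouse, genes at the low-numbered end are mostly known from the axial skeleton and the early bud. HOXD9 and HOXD10 act with their paralogues in the upper limb segment. HOXD10 and HOXD11 act in the forearm and lower leg, and HOXD12 and HOXD13 act in the hand and foot. The mouse cluster lies between regulatory deserts on either side, and both carry limb enhancers.

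The libraries held 41808148 to 54998469 counts, and each HOXD gene had between 214 and 4303 counts in each library. The limb labels were checked with the forelimb factor TBX5, at 428 to 554 CPM (read counts set relative to the library total, which TMM, the trimmed mean of M-values, rescales) in the forelimb libraries and 1.001 to 2.87 CPM in the hindlimb libraries. The hindlimb factor PITX1 ran from 0.154 to 0.550 CPM across forelimb libraries and from 25.8 to 44.7 CPM across hindlimb libraries. TWIST1 and MSX1, genes of the limb mesenchyme, were present in all libraries of both limbs, at means of 60.6 and 64.0 CPM in forelimb and 66.8 and 72.7 CPM in hindlimb. In buds measured whole, fewer cells that express a gene and less RNA per cell cannot be told apart.

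HOXD10 and HOXD11 rose in forelimb relative to hindlimb, and both were also the members with the most reads. HOXD10 was at 71.1, 54.9, 71.0, 53.9 and 47.9 CPM in forelimb replicates 1 to 5 and at 19.8, 20.5, 24.6, 19.6 and 19.6 CPM in hindlimb replicates 1 to 5. Its lowest forelimb library was above its highest hindlimb library, and the hindlimb values were close together apart from replicate 3. The means were 59.8 ± 10.7 CPM (SD, n = 5) and 20.8 ± 2.15 CPM (SD, n = 5), a 2.87-fold difference or 1.52 ± 0.14 (SE) on the log2 scale, with an adjusted p of 9.31e-05 (edgeR quasi-likelihood test over 15595 genes, Benjamini-Hochberg). By its p-value it ranked 7 among all genes tested.

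HOXD11, which in the mouse shapes the radius and ulna together with HOXA11, was at 71.7, 83.9, 80.1, 79.5 and 91.6 CPM in the forelimb libraries in the same order. In the hindlimb libraries it was at 39.6, 48.9, 46.3, 46.1 and 38.2 CPM. The limbs did not overlap, with means of 81.4 ± 7.25 and 43.8 ± 4.68 CPM (SD, n = 5). The difference was 1.86-fold, or 0.89 ± 0.10 (SE) on the log2 scale (edgeR adjusted p = 0.00135). HOXD10 and HOXD11 did not order the forelimb libraries alike: replicate 5 was lowest for HOXD10 and highest for HOXD11, and replicate 1 was highest for HOXD10 and lowest for HOXD11.

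Of the 6 members, all of which passed the filter on low counts, these 2 passed the test with forelimb higher and 0 passed it with hindlimb higher. Among all genes tested, 0.103% were called higher in forelimb and 0.199% in either direction. The median log2 fold change was 0.69 over the members and -0.01 over all genes tested. The 2 calls were made in each of the 20 alternative fits, which changed the scaling, the filter, the tool or the libraries.

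**Figure D1:**
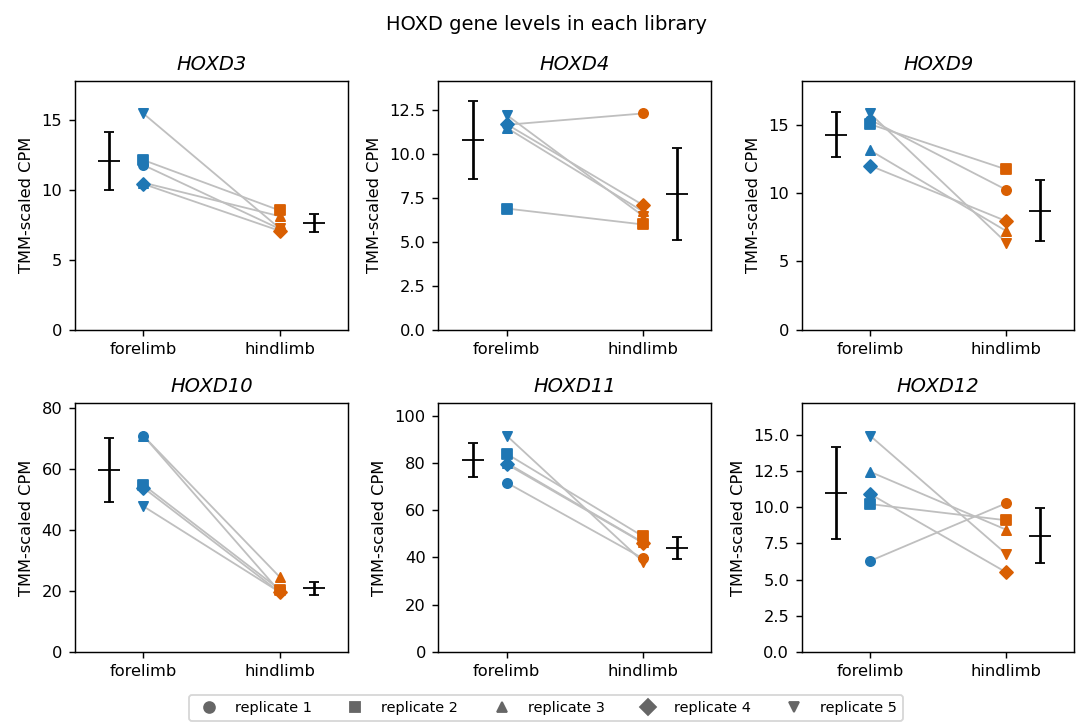
TMM-scaled CPM (y axis, linear, from 0) of the 6 measured HOXD genes in the 5 forelimb and 5 hindlimb libraries, with a marker shape for each replicate number, grey lines joining equal numbers, and bars for the mean ± SD. HOXD3, HOXD9, HOXD10 and HOXD11 have all forelimb libraries above all hindlimb libraries, whereas HOXD4 and HOXD12 overlap and each has a line that rises toward hindlimb, that of replicate 1.

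HOXD9, whose mouse counterpart acts with HOXA9 in the upper limb, was at 15.4, 15.1, 13.2, 12.03 and 15.9 CPM in forelimb replicates 1 to 5. In the hindlimb it was at 10.3, 11.8, 7.23, 7.96 and 6.38 CPM. The forelimb libraries again lay above the hindlimb libraries, hindlimb replicate 2 coming closest to the lowest forelimb library, replicate 4. The means were 14.3 ± 1.64 and 8.72 ± 2.23 CPM (SD, n = 5), and the log2 difference of 0.71 ± 0.19 (SE) did not pass the threshold without the replicate number as a block (edgeR adjusted p = 0.334). With the block the log2 difference was 0.74 ± 0.15 (SE) and passed it (edgeR adjusted p = 0.0305).

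HOXD12, a gene of the distal limb in the mouse, was at 6.28, 10.2, 12.5, 10.9 and 14.96 CPM in forelimb replicates 1 to 5 and at 10.3, 9.10, 8.44, 5.49 and 6.77 CPM in the hindlimb. The limbs overlapped, because forelimb replicate 1 was the lowest of its limb and hindlimb replicate 1 the highest of its limb. The means were 10.97 ± 3.19 and 8.02 ± 1.90 CPM (SD, n = 5), a log2 difference of 0.45 ± 0.24 (SE) that did not pass the test (edgeR adjusted p = 0.99997, and 0.454 with the block). HOXD12 had the largest relative spread of the members among forelimb libraries, with an SD of 29.1% of its mean, where HOXD11 had 8.91%.

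At the low-numbered end, HOXD3 was at 11.8, 12.1, 10.5, 10.4 and 15.4 CPM in forelimb replicates 1 to 5 and at 7.20, 8.52, 8.10, 7.06 and 7.24 CPM in the hindlimb. The limbs did not overlap, and forelimb replicate 5 stood above the other forelimb libraries. HOXD3 is best known in the mouse for its part in forming the uppermost neck vertebrae. Its means were 12.04 ± 2.04 and 7.62 ± 0.648 CPM (SD, n = 5), with a log2 difference of 0.66 ± 0.16 (SE). The adjusted p was 0.250 without and 0.0459 with the replicate block (edgeR).

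HOXD4, a target of retinoic acid in the mouse hindbrain, was at 11.6, 6.89, 11.5, 11.7 and 12.2 CPM in forelimb replicates 1 to 5. In the hindlimb it was at 12.3, 5.98, 6.72, 7.09 and 6.47 CPM. Hindlimb replicate 1 was above every forelimb library, and forelimb replicate 2 was below 2 of the hindlimb libraries. It differed by 0.48 ± 0.23 (SE) on the log2 scale, and neither the fit without the block (edgeR adjusted p = 0.99997) nor that with it (0.190) called it.

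In all, 4 of the 6 members had forelimb and hindlimb libraries that did not overlap, each with forelimb above, an arrangement found in 0.616% of the genes tested. The block fit called these same 4 members, HOXD3, HOXD9, HOXD10 and HOXD11, against 0.705% of all genes called higher in forelimb, and DESeq2 without a block called the 4 as well, against 0.239%. The calls of HOXD3 and HOXD9 in the block fit depended on the libraries included. When a pair of equal number was left out in turn, they were called only without pair 1, and their edgeR adjusted p over these 5 fits ran from 0.0460 to 0.147 for HOXD3 and from 0.0198 to 0.155 for HOXD9.

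Paired by replicate number, HOXD10 had log2 forelimb over hindlimb ratios of 1.84, 1.42, 1.53, 1.46 and 1.29 in pairs 1 to 5, and HOXD11 had 0.86, 0.78, 0.79, 0.79 and 1.26. HOXD3, HOXD9, HOXD10 and HOXD11 were higher in forelimb in 5 of 5 pairs, which 7.78% of all genes tested were, and HOXD4 and HOXD12 in 4 of 5. The exception for both was pair 1, with log2 ratios of -0.08 for HOXD4 and -0.71 for HOXD12. HOXD12 covered the widest range, from -0.71 in pair 1 to 1.14 in pair 5, and its SD over pairs was 0.74, against 0.21 for HOXD10 and 0.21 for HOXD11. In pairs 1 to 4 HOXD10 had the highest ratio of the 6 members, and in pair 5 HOXD9 did, at 1.31 against 1.29 for HOXD10. Pair 5 gave HOXD3, HOXD4, HOXD9, HOXD11 and HOXD12 their highest ratio. Its median over the 6 members was 1.20, against 0.43 to 0.78 in the other pairs. Leaving out pair 5 lowered the block-fit log2 differences of these members to 0.54, 0.41, 0.61, 0.81 and 0.26, in the same order. That of HOXD10, lowest in pair 5, rose to 1.57.

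**Figure D2:**
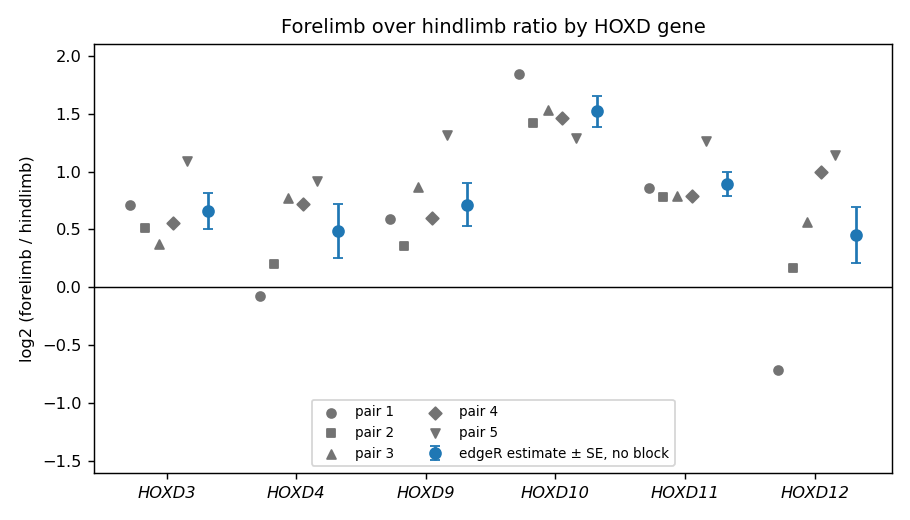
Log2 ratio of forelimb over hindlimb (y axis) for each HOXD gene in paralogue order, as grey points for the 5 pairs of equal replicate number and as blue points for the edgeR estimate ± SE without the block. HOXD10 is highest at 1.52 and HOXD11 next at 0.89, and the 2 points below 0 are pair 1 of HOXD4 and of HOXD12.

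Pair 1 also stood apart in genes outside the cluster. SHH, the signal from the posterior margin of the bud that acts upstream of high-numbered HOXD genes in the mouse, was at 14.5 CPM in forelimb replicate 1 against 0.0467 to 1.72 CPM in the other forelimb libraries, and at 11.2 CPM in hindlimb replicate 1 against 0.723 to 4.96 CPM. The summed level of 8 genes of the distal bud was 587 CPM in forelimb replicate 1, within the 556 to 616 CPM of the other forelimb libraries, and 606 CPM in hindlimb replicate 1 against 463 to 549 CPM. WNT5A (means of 249 CPM in forelimb and 236 CPM in hindlimb) and MSX2 (144 and 120 CPM) held most of the distal sums. HOXA13, of the same list, was instead lowest in replicate 1 of each limb. It was at 27.6 CPM against 28.4 to 37.3 CPM in forelimb and at 19.7 CPM against 23.6 to 28.1 CPM in hindlimb. The summed level of 3 genes of the proximal bud was 272 CPM against 133 to 207 CPM in forelimb and 319 CPM against 224 to 301 CPM in hindlimb. The summed level of 7 blood genes was 145 CPM in forelimb replicate 1 and 11.9 to 14.9 CPM in the other forelimb libraries. In hindlimb replicate 1 it was 25.2 CPM against 5.98 to 17.5 CPM. The summed level of 7 muscle genes was 218 CPM in forelimb replicate 1 against 390 to 486 CPM. In hindlimb replicate 1 the muscle sum was 319 CPM, within the 316 to 461 CPM of the other hindlimb libraries. The part of these genes and tissues in the HOXD values of pair 1 was not tested. Without this pair, the block fit called all 6 members higher in forelimb, against 1.32% of all genes. HOXD4 then had an edgeR adjusted p of 0.0483 and a log2 difference of 0.66, and HOXD12 had 0.0414 and 0.72. Pair 1 is the pair in which HOXD4 and HOXD12 were lower in forelimb, so leaving it out favours these calls. When another pair was left out neither was called, with edgeR adjusted p of 0.292 to 0.493 for HOXD4 and 0.544 to 0.799 for HOXD12.

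Summed over the 6 members, HOXD reads reached 179 to 199 CPM in forelimb and 84.7 to 105 CPM in hindlimb, means of 189 ± 8.93 and 96.7 ± 7.93 CPM (SD, n = 5) and a ratio of 1.96. The sum varied less between forelimb libraries than HOXD10 alone did. As a share of HOXD reads, HOXD10 held 31.6% ± 5.38 (SD, n = 5) in forelimb and 21.6% ± 2.06 in hindlimb, and HOXD11 held 43.0% ± 3.60 and 45.3% ± 3.51. In forelimb replicate 1 the share of HOXD10 was 37.8% (95% exact binomial interval 36.8% to 38.9%) and in replicate 5 it was 24.2% (23.3% to 25.1%). These intervals cover counting error within a library, not the spread between libraries. HOXD3, HOXD4, HOXD9 and HOXD12 each held a mean of 5.69% to 7.56% in forelimb and 7.89% to 8.95% in hindlimb. Gene lengths were not used here, so shares and CPM are compared for a gene between limbs and give no order of transcript levels between genes.

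Ratios of counts between neighbouring measured members within a library need no scaling for depth, and they were used to ask whether neighbours differed in their limb difference. The log2 ratio of HOXD10 to HOXD9 was 2.20, 1.86, 2.43, 2.16 and 1.59 in forelimb replicates 1 to 5 and 0.95, 0.80, 1.77, 1.30 and 1.62 in the hindlimb. Forelimb replicate 5 fell within the hindlimb range, and the mean difference was 0.76, with a two-sided exact permutation p of 0.0238 that became 0.0595 when adjusted over the 5 ratios. The log2 ratio of HOXD11 to HOXD10 was 0.01, 0.61, 0.17, 0.56 and 0.94 in forelimb and 0.996, 1.26, 0.91, 1.23 and 0.96 in hindlimb. It was lower in forelimb in 5 of 5 pairs, by 0.61 on average, with an exact permutation p of 0.0159 and an adjusted p of 0.0595. The other ratios differed by -0.14 (HOXD4 to HOXD3), 0.24 (HOXD9 to HOXD4) and -0.46 (HOXD12 to HOXD11), with exact permutation p of 0.635, 0.405 and 0.0952 and adjusted p of 0.635, 0.506 and 0.159. None of the 5 ratios thus passed the threshold after adjustment, so that neighbouring members were not shown to differ in their limb difference with all libraries included. Without forelimb replicate 5 the ratios of HOXD10 to HOXD9 and of HOXD11 to HOXD10 passed it, both at an adjusted exact permutation p of 0.0397. That library is the one within the hindlimb range in both ratios, so leaving it out favours this result. Without any other single library neither passed, at adjusted exact permutation p of 0.0595 to 0.119. Exact sign flips within pairs gave an adjusted p of 0.234 for both ratios, and they cannot give a p below 0.0625.

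**Figure D3:**
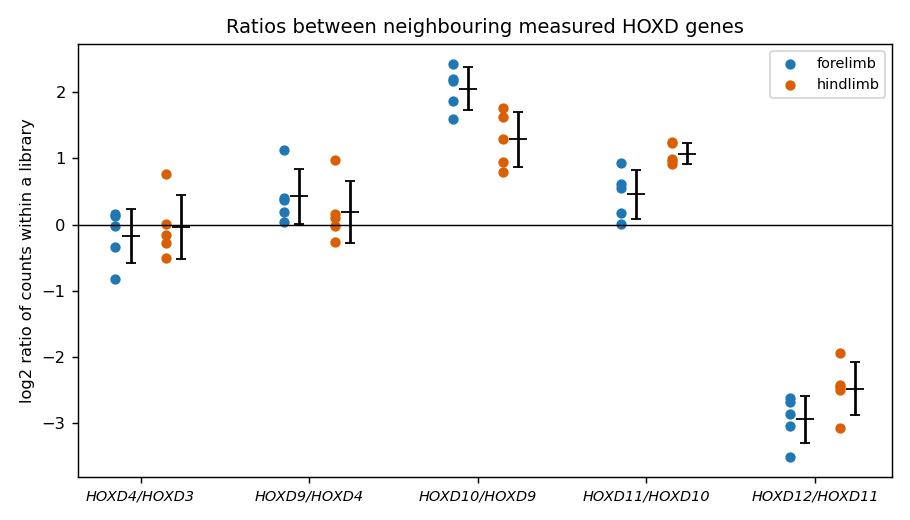
Log2 ratio of the counts of neighbouring measured HOXD genes within a library (y axis), for 5 forelimb and 5 hindlimb libraries, with bars for the mean ± SD. The ratio of HOXD10 to HOXD9 is on average 0.76 higher in forelimb and that of HOXD11 to HOXD10 is 0.61 lower, and in each a single forelimb library reaches into the hindlimb range.

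HOXD genes were next set beside their paralogues in the other clusters, which arose from the same ancestral gene and often act redundantly in the mouse limb. In paralogue group 10, HOXA10 had forelimb and hindlimb means of 61.4 ± 5.21 and 61.9 ± 6.01 CPM (SD, n = 5; log2 difference -0.01 ± 0.10 SE). HOXC10 had means of 0.865 ± 0.244 and 61.4 ± 8.08 CPM. HOXD10 had its higher values in the limb in which HOXC10 was near 0. In group 11, HOXA11 was at 66.6 ± 9.24 and 68.4 ± 7.49 CPM, and HOXC11 at 0.618 ± 0.290 and 46.2 ± 5.93 CPM. In group 9, HOXB9 and HOXC9 had log2 differences of -1.98 ± 0.20 and -0.61 ± 0.18 (SE), opposite in sign to the 0.71 of HOXD9. HOXB9 passed the edgeR test at an adjusted p of 0.000409 and HOXC9 did not, at 0.576. In group 4, HOXA4 and HOXC4 had log2 differences of 1.89 ± 0.33 and 1.17 ± 0.40, the same in sign as the 0.48 of HOXD4, with edgeR adjusted p of 0.0323 and 0.800.

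The difference between paralogues was tested as the ratio of their counts within a library, for all 8 pairs of a HOXD gene and a tested paralogue, a set chosen after the values were seen. The log2 ratio of HOXD10 to HOXA10 was -0.39 to 0.13 in forelimb and -1.76 to -1.40 in hindlimb, a mean difference of 1.52. That of HOXD11 to HOXA11 was -0.18 to 0.72 in forelimb and -0.84 to -0.33 in hindlimb, a mean difference of 0.94. Neither overlapped between limbs. Both, and also the ratios of HOXD10 to HOXC10, HOXD11 to HOXC11, HOXD9 to HOXB9 and HOXD9 to HOXC9, gave a two-sided exact permutation p of 0.00794, the smallest that 5 against 5 libraries allow, and an adjusted p of 0.0106 over the 8 ratios. The mean differences of these last ratios were 7.68, 7.31, 2.68 and 1.37. In these last ratios each HOXD gene taken alone had all forelimb libraries above all hindlimb libraries. Each paralogue taken alone had all hindlimb libraries above all forelimb libraries. Their p was thus fixed by values already seen. So was that of HOXD10 to HOXA10 and of HOXD11 to HOXA11, by the ranges of the separate genes. In forelimb HOXD10 was at 47.9 CPM or more and HOXA10 at 67.4 CPM or less. In hindlimb they were at 24.6 CPM or less and 52.1 CPM or more. For HOXD11 and HOXA11 these limits were 71.7 and 81.3 CPM in forelimb and 48.9 and 57.9 CPM in hindlimb. All these fixed p enter the adjustment of the ratios of HOXD4. The ratio of HOXD4 to HOXA4 was lower in forelimb, by 1.46 on average (exact permutation p = 0.0159, adjusted p = 0.0181), and that of HOXD4 to HOXC4 differed by -0.52 (exact permutation p = 0.310, adjusted p = 0.310). Over the 5 pairs of equal number, exact sign flips cannot give a p below 0.0625, and they gave that value for the 7 ratios that passed above.

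**Figure D4:**
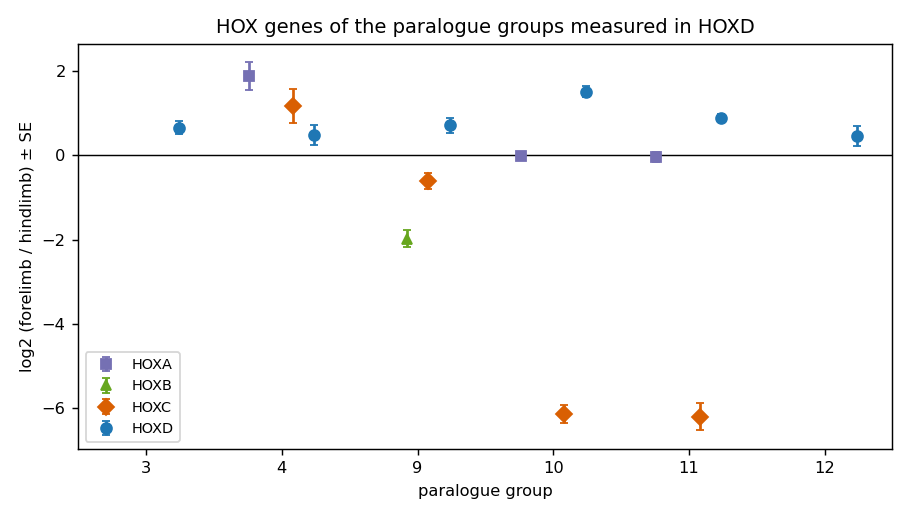
Log2 ratio of forelimb over hindlimb ± SE from edgeR (y axis) for the tested HOX genes of paralogue groups 3, 4, 9, 10, 11 and 12, coloured by cluster. The HOXD genes lie between 0.45 and 1.52, HOXA10 and HOXA11 lie at -0.01 and -0.04, and HOXC10 and HOXC11 lie at -6.14 and -6.21.

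Across the A, B and C clusters, 19 HOX genes were tested, of which 7 passed the test (4 toward forelimb and 3 toward hindlimb), against 0.199% of all genes tested, with a median log2 difference of 0.44 and a range of -6.21 to 1.89. The block fit called 9 of them, 6 toward forelimb, against 1.33% of all genes, and DESeq2 called 9, against 0.539%. The 6 HOXD genes ranged from 0.45 to 1.52.

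The genes that flank the cluster were examined because regulatory deserts lie on either side of it in the mouse. Where such deserts lie in the anole, and which of these genes border them, was not examined. In the RefSeq gene order of the assembly rAnoSag1.mat, HOXD1 follows MTX2 at one end and HOXD13 precedes EVX2 and LNPK at the other. Of the flanking genes between PDE11A and SP3, 16 were tested. Of these, 0 were called by edgeR, without or with the block, or by DESeq2, and 1 (WIPF1) had an unadjusted edgeR p under 0.05. Among all genes tested these shares were 0.199%, 1.33%, 0.539% and 3.95%. With shares this low, 0 calls among 16 genes do not set the flanks apart from other genes. The log2 differences of the flanking genes ran from -0.19 to 0.47 with a median of 0.05. Their lowest edgeR adjusted p was 0.808, for WIPF1. EVX2, a homeobox gene active with the high-numbered HOXD genes in the mouse limb, had means of 2.61 ± 0.570 CPM (forelimb) and 2.97 ± 0.330 CPM (hindlimb; SD, n = 5). Its log2 difference was -0.19 ± 0.23 (SE), opposite in sign to all 6 members. LNPK, which shapes the endoplasmic reticulum, had -0.11 ± 0.09, and MTX2, a mitochondrial import gene, had 0.06 ± 0.09. In the same annotation the gene model of HOXD3 overlaps those of HOXD4, HOXD8, HOXD9, HOXD10 and HOXD11, and that of HOXD9 overlaps HOXD10 and HOXD11. The annotation behind the authors' counts is not given, so whether the models counted there overlap likewise is not known. Whether reads of these members were divided between models in those counts was not tested.

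**Figure D5:**
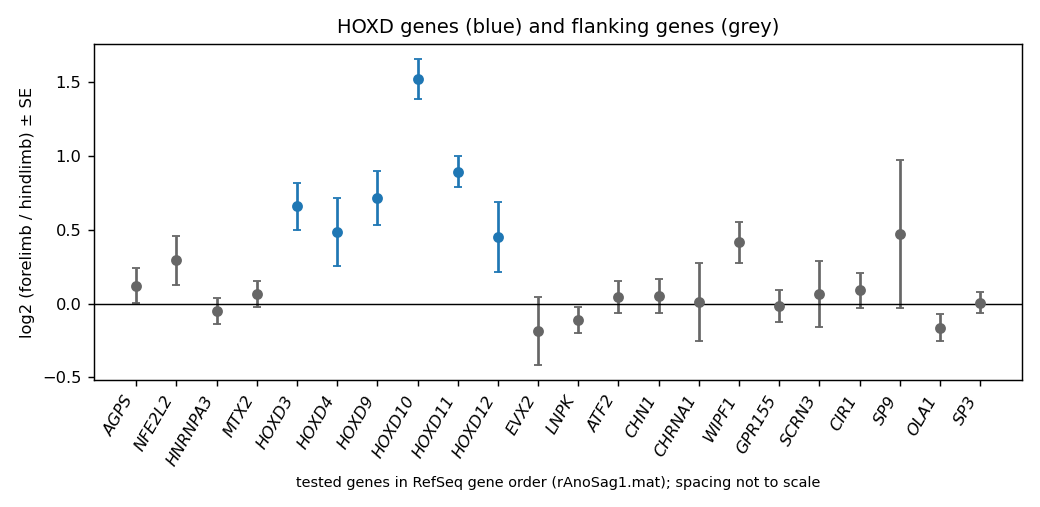
Log2 ratio of forelimb over hindlimb ± SE from edgeR (y axis) for the tested HOXD genes in blue and the tested flanking genes in grey, in RefSeq gene order with spacing not to scale. The 6 HOXD genes lie at 0.45 or above, while MTX2, at 0.06, and EVX2, at -0.19, are the tested genes on either side.

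Genes tied to HOXD regulation and function were counted from lists. Of 11 tested genes known to act upstream of HOXD genes in limb buds, such as SHH, the repressor GLI3 and the posterior factor HAND2, 0 were called by edgeR without or with the block or by DESeq2, 1 (RARB) had an unadjusted edgeR p under 0.05, as did 3.95% of all genes tested, and their log2 differences ran from -0.59 to 0.31 with a median of -0.03. Of 8 tested HOX cofactors of the MEIS, PBX and PKNOX families, 0 were called by edgeR in either fit or by DESeq2. The proximal cofactors MEIS1 and MEIS2, the 2 with an unadjusted edgeR p under 0.05, had log2 differences of -0.40 ± 0.18 and -0.49 ± 0.17 (SE), and SHOX2, the other gene of the proximal list, had -0.15 ± 0.23. The 8 tested genes of the distal bud had a median of 0.17 and ran from -0.18 for MSX1 to 0.44 for HOXA13. In both lists edgeR called 0 without or with the block and DESeq2 called 0, and 2 distal genes (MSX2 and HOXA13) had an unadjusted edgeR p under 0.05. Of 13 tested Polycomb genes, which keep HOX clusters silent, 0 were called by edgeR in either fit or by DESeq2, and 0 had an unadjusted edgeR p under 0.05. Among all genes, edgeR called 0.199% without and 1.33% with the block, and DESeq2 called 0.539%. In lists this short, 0 calls do not set the genes apart from others.

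Of 13 tested genes that depend on high-numbered HOX proteins in mouse or chick, 0 were called by edgeR without the block and 3 with it, 1 by DESeq2 (SALL1), and 5 had an unadjusted edgeR p under 0.05. Among all genes tested these shares were 0.199%, 1.33%, 0.539% and 3.95%. SALL1, a zinc finger gene of digit formation, had means of 105 ± 24.1 CPM (forelimb) and 58.9 ± 9.18 CPM (hindlimb; SD, n = 5), and edgeR gave adjusted p of 0.0642 without and 0.000617 with the block. EPHA4 and EPHA7, receptors in cell sorting, had log2 differences of 0.30 and -0.40 in the block fit, with edgeR adjusted p of 0.0438 and 0.0349.

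Markers of other cells in or beside the bud were summed for each library. The sums include markers with a symbol that were not tested, so that blood has 7 genes and mesonephros 5. Tested markers of muscle precursors (7), endothelium (5), blood (5), ectoderm (8), nerve tissue (5), somite and trunk (6) and mesonephros (4) gave 0 calls by edgeR without the block and 0 by DESeq2. Among all genes these shares were 0.199% and 0.539%. An unadjusted edgeR p under 0.05 was given to 1 nerve gene (NEUROG1) and 2 mesonephros genes (WT1 and EMX2), against 3.95% of all genes tested. The nerve markers summed to 23.1 to 40.4 CPM in forelimb and 10.3 to 44.3 CPM in hindlimb, the somite and trunk markers to 76.3 to 89.7 and 71.7 to 92.3 CPM, and the mesonephros markers to 89.0 to 117 and 97.6 to 119 CPM. The sums were 218 to 486 and 316 to 461 CPM for muscle, 59.5 to 110 and 40.5 to 83.8 CPM for endothelium, 11.9 to 145 and 5.98 to 25.2 CPM for blood and 437 to 523 and 395 to 605 CPM for ectoderm. With the block, 2 mesonephros genes were called, EMX2 higher in forelimb and WT1 higher in hindlimb, against 1.33% of all genes. The mesonephros marker PAX2 had means of 0.0425 CPM (forelimb) and 0.0907 CPM (hindlimb). OSR1 (66.7 and 77.3 CPM) and EMX2 (33.0 and 22.1 CPM) held most of the mesonephros sums, and WT1 had 0.549 and 1.84 CPM. MEOX2 (67.7 and 67.8 CPM) held most of the somite and trunk sums, and PAX1, PAX9 and TBX6 had means of 0.349 to 2.62 CPM. These sums thus follow few genes and do not measure how much trunk or mesonephros tissue was present. The part of other tissues in the HOXD values was not tested.

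Among 9455 other genes with a symbol and a mean of at least 1 CPM, the patterns most like those of the 2 called members were sought as the smallest root mean square difference in centred log2 CPM over the 10 libraries. For HOXD10 these were NPY (0.29), a neuropeptide gene, FAM84B (0.35) and SALL1 (0.37). NPY ran from 38.6 to 53.9 CPM across forelimb libraries and from 11.9 to 22.2 CPM across hindlimb libraries (edgeR adjusted p = 0.00135). For HOXD11 they were ST6GALNAC5 (0.21), a sialyltransferase gene, SLC8A3 (0.25), a sodium and calcium exchanger gene, and DLK2 (0.26). SLC8A3 was called (edgeR adjusted p = 0.0363), whereas FAM84B, SALL1, ST6GALNAC5 and DLK2 were not (edgeR adjusted p = 0.455, 0.0642, 0.173 and 0.843). All these genes were chosen by their likeness to members already called in the same libraries. A limb difference was thus built into the choice, and their p-values are no open tests. A gene that did not vary over the libraries would lie at 0.77 from HOXD10 and at 0.47 from HOXD11. Within the cluster, HOXD3 and HOXD11 were most alike, at 0.18, and HOXD10 and HOXD12 least, at 0.71.

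The authors' deposited table gave smaller log2 fold changes, and smaller SE, than those computed here for all 6 members, from 0.27 ± 0.14 (SE) for HOXD12 to 1.22 ± 0.12 for HOXD10. DESeq2 as run here gave 0.45 ± 0.24 and 1.52 ± 0.15. Its adjusted p for HOXD3, HOXD9, HOXD10 and HOXD11 was 0.00581, 0.0302, 1.21e-21 and 1.85e-11, close to the deposited values below. The smaller deposited estimates thus did not come with weaker test results, and their reason was not tested. In the authors' deposited table HOXD3, HOXD9, HOXD10 and HOXD11 had adjusted p of 0.00502, 0.0269, 1.21e-21 and 1.68e-11 and HOXD4 and HOXD12 had 0.957 and 0.99996, where 0.274% of genes with an adjusted p were called higher in forelimb.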

How the data were processed

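RNA sequencing counts of 5 forelimb and 5 hindlimb libraries were used. Per the labels' protocols, RNA came from the mirVana kit and was turned into libraries by the TruSeq Stranded mRNA kit. The submitters' processing notes name STAR, featureCounts, FastQC and DESeq2; versions, genome build, annotation release, strand setting and treatment of reads shared between genes are not given in the sources used here, so HOX paralogues, which resemble one another, and overlapping genes carry an uncertainty that was not measured. The deposited files hold raw read counts per gene, 1 file per library. The authors' table of the limb comparison gives for each gene, per the file headers, a p-value as deposited, raw and adjusted, a log2 fold change and its SE, a statistic (a score), and the signal averaged over libraries (a mean normalised count). Symbols were taken from that table. All 25920 gene identifiers begin with ENSACAG and are used as the files give them; Ensembl uses this prefix for Anolis carolinensis, a related anole, and whether the reads were mapped to that species' genome is not given in the sources used here.

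Counts were tested in R 4.3.3 with edgeR 4.0.16 (quasi-likelihood test, robust, TMM factors 0.928 to 1.03, default filter with minimum count 10 and minimum total 15), which kept 15595 genes. Adjustment was by Benjamini-Hochberg over these genes, with a threshold of 0.05. DESeq2 1.42.0, other scalings, no filter, the replicate number as a block and fits without a library or pair were alternatives. Within-library ratios had 0.5 added to each count and were compared by exact permutation over libraries. Named genes were all HOXD genes with a symbol, called genes of the lists and the 3 nearest patterns per called member; other genes were named after their values were seen. The members, lists and tests were chosen with earlier results of these data known. The binomial intervals of shares cover counting error only.

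Equal replicate numbers were taken as pairs because deviations from the limb mean over 9747 genes correlated at 0.51 to 0.75 between libraries of equal number and at -0.41 to 0.12 between others. The labels do not state a pairing. Between libraries of a limb, chi-square over its degrees of freedom was at least 39.4, so no library repeated another within sampling noise. RefSeq positions in rAnoSag1.mat were used for gene order and for overlap of gene models alone, and none are printed, since the build of the counts is not given.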

Additional observations from a re-analysis of the deposited data

Results flagged for a closer look

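For 24 sets of 5 values (the CPM of each HOXD gene, the neighbour ratios and the total counts, by limb), the most extreme library was set against the next. Its distance from the next was over 0.71 of the whole range in 4 sets, a limit from Dixon's test that about 1 in 20 sets pass by chance. Forelimb replicate 2 was low for HOXD4, at 6.89 CPM where the remaining forelimb libraries had 11.5 to 12.2 CPM. Hindlimb replicate 1 was high for HOXD4, at 12.3 CPM where the remaining hindlimb libraries had 5.98 to 7.09 CPM. Hindlimb replicate 3 was high for HOXD10, at 24.6 CPM where the remaining ones had 19.6 to 20.5 CPM. Forelimb replicate 4 had a total count of 54998469 where the remaining ones had 42151036 to 45608067.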

How the results depend on the processing

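The comparisons of HOXD genes with paralogues were added after seeing the data, with their alternatives; the other alternatives were planned. The 6 log2 fold changes kept their sign in all 20 alternative fits, and HOXD10 and HOXD11 their calls, with log2 fold changes of 1.43 to 1.59 and 0.81 to 0.94. Members called rose from 2 to 4 with DESeq2 and to 4 with the replicate block. With the block they were 6 without pair 1 and 2 when another pair was left out. They stayed at 2 in the fits that left out a library. Over all genes, 31 were called, 97 with DESeq2 and 208 with the replicate block, 19 to 31 when a library was left out (19 without forelimb replicate 4 or hindlimb replicate 2), and 330, 58, 69, 97 and 226 with the block without pairs 1 to 5 in turn. The cause was not tested. Leaving out a library moved the log2 ratio differences between limbs to 0.64 to 0.88 for HOXD10 to HOXD9, -0.73 to -0.50 for HOXD11 to HOXD10, -0.61 to -0.32 for HOXD12 to HOXD11, -0.26 to 0.06 for HOXD4 to HOXD3 and 0.06 to 0.43 for HOXD9 to HOXD4. The difference of HOXD4 to HOXD3 changed sign without forelimb replicate 2 (0.02) and without hindlimb replicate 1 (0.059). Those of HOXD10 to HOXD9 and HOXD11 to HOXD10 passed the threshold only without forelimb replicate 5 (0.88 and -0.73). As a replicate block, sign flips within pairs left the paralogue differences at -1.46, 1.37, 2.68, 7.68, 1.52, 7.31 and 0.94, with an adjusted exact p of 0.0714, which 5 pairs cannot bring below the threshold. All 7 passed the threshold in each comparison without a library. For the ratios to HOXA10, HOXA11, HOXB9, HOXC9, HOXC10 and HOXC11 this was no open test. The separate values of the genes fixed that the limbs could not overlap, whichever library was left out.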
